A study of Mus musculus with 18 samples.

Results

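Integrins are the paired receptors through which cells hold on to the matrix around them, and 10 of their genes, Itga1, Itga3, Itga5, Itga6, Itga7, Itga8, Itga9, Itgb1, Itgb4 and Itgb6, are described here in mouse urinary bladder. They were chosen by name, as the subunits of epithelium and muscle, out of 26 integrin subunit genes among the 26324 genes that every table of the study listed. Earlier results of these data were known when they were chosen. The bladder wall was measured as single cells, as single nuclei, as spots of tissue sections and as bulk RNA, in 18 samples of 11 groups from C57BL/6 mice with no treatment or altered gene named in the labels. Each sample pooled animals.

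Single-cell libraries of the whole bladder came from 3 males at 22 months, from 3 males at 3 months, from 2 pools of 2 females and 2 males at 12 months, and from 2 females and 2 males at 24 months. A nuclear preparation of the whole bladder was made from 2 females and 2 males at 12 months. The detrusor, the muscle layer that empties the bladder, gave a library labelled detrusor only (3 females, 14 months) and a whole-bladder library labelled detrusor enriched (2 females and 2 males, 14 months). Frozen sections on spatial arrays came from 4 males per array, with 2 arrays at 22 months and 2 at 14 months. Bulk RNA was sequenced from 3 samples of intact bladder and 3 of dissociated bladder, each of 3 females at 12 months.

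An integrin is made of 1 alpha and 1 beta chain. Itgb1 is the shared beta chain of most matrix receptors: with Itga1 it binds collagen, with Itga3, Itga6 or Itga7 it binds laminin, with Itga5 it binds fibronectin, with Itga8 it binds RGD-bearing proteins such as nephronectin, and with Itga9 it binds tenascin-C and related ligands. Itgb4 pairs with Itga6 alone in the hemidesmosome, the plaque that ties basal epithelial cells to the basement membrane, where plectin (Plec), dystonin (Dst), collagen XVII (Col17a1) and the tetraspanin Cd151 are its partners. Itgb6 pairs with the alpha-v chain in epithelium and is known for releasing active TGF-beta from its latent form. In smooth muscle, Itgb1 integrins sit at the adhesion plaques that pass contractile force to the matrix.

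The genes lie on 7 chromosomes of the mouse assembly GRCm38.p6: Itga8 at chr2:12106632-12301985, Itgb6 at chr2:60598292-60722603, Itga6 at chr2:71786886-71858427, Itgb1 at chr8:128685654-128733579, Itga9 at chr9:118606709-118901003, Itga7 at chr10:128933421-128958286, Itga3 at chr11:95044475-95076844, Itgb4 at chr11:115974725-116008412, Itga1 at chr13:114958079-115101964 and Itga5 at chr15:103344286-103366791. Promoter stretches from RefSeq were matched for 7 of the 10 genes (entries for Itga6, Itga7 and Itgb4 were not matched). The 250 bases before the gene's outermost start are shown for 4 genes that stand for the patterns described next: Itga1 and Itga5, higher in smooth muscle than in urothelium, Itgb1, abundant in both, and Itgb6, higher in urothelium. Capitals mark GGGCGG on either strand, and each stretch is written 5′ to 3′ on the strand of its gene.

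Itga1 (GRCm38.p6 chr13:115101965-115102214, minus strand): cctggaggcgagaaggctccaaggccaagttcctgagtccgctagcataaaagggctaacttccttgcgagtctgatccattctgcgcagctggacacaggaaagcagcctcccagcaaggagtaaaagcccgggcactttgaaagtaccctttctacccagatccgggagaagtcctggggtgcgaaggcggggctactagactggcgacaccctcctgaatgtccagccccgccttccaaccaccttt
Itga5 (GRCm38.p6 chr15:103366792-103367041, minus strand): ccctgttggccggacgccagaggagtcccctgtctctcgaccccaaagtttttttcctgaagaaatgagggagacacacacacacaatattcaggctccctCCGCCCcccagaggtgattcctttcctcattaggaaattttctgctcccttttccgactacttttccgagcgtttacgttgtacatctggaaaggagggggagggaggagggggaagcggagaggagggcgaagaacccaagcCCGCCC
Itgb1 (GRCm38.p6 chr8:128685404-128685653, plus strand): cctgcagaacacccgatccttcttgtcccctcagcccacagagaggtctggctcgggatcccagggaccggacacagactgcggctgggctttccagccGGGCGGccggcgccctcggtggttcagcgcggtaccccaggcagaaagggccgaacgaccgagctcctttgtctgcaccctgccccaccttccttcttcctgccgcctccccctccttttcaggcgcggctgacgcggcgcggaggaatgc
Itgb6 (GRCm38.p6 chr2:60722604-60722853, minus strand): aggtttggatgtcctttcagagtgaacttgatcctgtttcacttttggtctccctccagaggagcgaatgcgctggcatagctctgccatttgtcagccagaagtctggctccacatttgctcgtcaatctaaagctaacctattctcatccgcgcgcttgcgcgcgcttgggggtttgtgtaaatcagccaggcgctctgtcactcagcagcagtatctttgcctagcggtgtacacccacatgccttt

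Of these stretches, Itga5 held GGGCGG at 2 places and Itgb1 at 1, and 32.7% of all 32851 RefSeq promoters of that length hold it on either strand. Itga1 and Itgb6 held none in these windows. GGAATG, found in 12.6% of all promoters on either strand, was found near the end of the Itgb1 stretch. The CArG box of serum response factor, in 1.47% of all promoters, was not in the 4 stretches. Itgb6 has a second promoter entry, not shown, which held 1 CArG box 50 bases before its start, and no entry of another matched member held one. TGANTCA (6.75% of all promoters) and TATAAA (12.4%), searched on both strands, were not in them either. The GC content was 57.6% for Itga1, 55.6% for Itga5, 68.0% for Itgb1 and 52.0% for Itgb6, beside a median of 52.4% over all promoters. These matches are letters in a window and say nothing of binding.

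Cell classes were rebuilt by clustering each library without the integrin genes and their pathway lists, and a cluster is called "-like" from a list of markers. Levels are unique molecular identifiers (UMIs, 1 per captured transcript end) summed over the cells of a class in a library. They are given as CPM, counts scaled to a common total for each sum. Where different genes are set side by side, this is by counts alone, and differences in capture between genes were not tested. With 1 library for most groups, levels by class are descriptions with no test, and the ranges quoted are ranges over libraries. Urothelial-like cells were held by 7 libraries (372 to 2098 cells each) and fibroblast-like cells by 8 (94 to 5434). Smooth-muscle-like cells were held by the nuclei (1364), the detrusor-only library (211) and the detrusor-enriched library (59, with a median of 1457 UMIs beside 6959 in that library). Whole-bladder cell libraries held at most 18 such cells, too few to describe. Pericyte-like cells, which wrap small vessels, were held by the 22-month whole-bladder library (94) and the detrusor-only and detrusor-enriched libraries (158 and 101). A pair of clusters had Pln, the phospholamban gene of muscle, among their leading genes, in the detrusor-only (207 cells) and detrusor-enriched (101) libraries. The pair was pericyte-like by the naming rule in the first and smooth-muscle-like in the second. It was kept apart after the clusters were seen and is called Pln-led mural cells, a name that did not require Pln to come first.

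Class labels were held against the marker lists. The 11 smooth muscle markers summed to 54229 to 88643 CPM in smooth-muscle-like cells and nuclei and to 32.3 to 242 CPM in urothelial-like cells, but to 5965 CPM in urothelial-like nuclei and 12419 CPM in fibroblast-like nuclei, with none of the 11 at 0. Urothelial-like cells and nuclei carried the 12 urothelial markers at 7995 to 21890 CPM. No urothelial marker was at 0 there. Fibroblast-like cells carried these urothelial markers too, at 1629 and 1835 CPM in the 12-month libraries and 1152 CPM at 24 months, against 381 and 424 CPM at 22 and 3 months and 6.06 and 343 CPM in the detrusor libraries. Depth varied widely: the median barcode held 1126.5 UMIs in the nuclei, 1837 and 2524.5 in the 3-month and 22-month cells, and 6959 to 15042 in the other cell libraries.

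By these levels the 10 genes are described as an epithelial set (Itga6, Itgb4, Itgb6) and a muscle set (Itga1, Itga5, Itga7, Itga8, Itga9), with Itgb1 and Itga3 found in both tissues. The names compare urothelium with muscle only, and other classes held several of these genes too. In urothelial-like cells of the 5 whole-bladder libraries the most abundant members were Itgb1 at 71.0 to 131 CPM (mean 94.7 ± 29.5, SD, n = 5), Itga6 at 53.6 to 90.4 CPM (73.7 ± 15.6), Itgb4 at 34.0 to 79.3 CPM (54.3 ± 17.6), Itga3 at 15.6 to 33.2 CPM (23.1 ± 8.35) and Itgb6 at 13.4 to 16.3 CPM (14.5 ± 1.35). Itga6 and Itgb1 overlapped in range and so did Itga6 and Itgb4, so the place of Itga6 among these 3 is not set beyond the spread of the libraries. Itgb1 lay above Itgb4 in every library. Itga3 lay below Itgb4 in every library, and its range did not overlap with that of Itgb4. The other 5 members, all partners of Itgb1, stayed under 4 CPM in the same cells: Itga5 reached 3.85 CPM, and Itga1, Itga7, Itga8 and Itga9 stayed under 1 CPM in all 5 libraries. Urothelial-like cells of the detrusor-enriched library showed the same members on top, with Itgb1 at 169.9 CPM, Itga6 at 128 CPM, Itgb4 at 84.0 CPM, Itgb6 at 41.3 CPM and Itga3 at 34.1 CPM.

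Smooth-muscle-like cells, with the Pln-led cells set apart, held more Itga1 and Itga5 than the other mural cells of the same libraries. With the Pln-led cells of the detrusor-enriched library counted as smooth-muscle-like, Itga1 was at 453 CPM there, below the 499 CPM of pericyte-like cells, and Itga5 at 46.1 CPM, below the 116 CPM of blood endothelial-like cells. Kept apart, Itga1 was at 748 CPM in the detrusor-only library (95% Poisson interval, counting error only, 716 to 781), 949.97 CPM in the detrusor-enriched library and 1735 CPM in the nuclei. Itgb1 stood at 1260.1, 1087 and 954 CPM in the same order. By counts alone, the alpha chain was above its beta chain in the nuclei and below it in both cell libraries. Itga5 was at 96.7, 171 and 182 CPM, Itga9 at 78.6, 91.2 and 140.3 CPM, Itga7 at 33.4, 60.8 and 119 CPM, and Itga8 at 44.1, 87.4 and 54.3 CPM. Itga3 was at 14.3, 22.8 and 56.6 CPM. The epithelial set was low in these cells: Itga6 was at 2.94 CPM in the detrusor-only library, at 0 counts in the detrusor-enriched library, which allows up to 11.4 CPM at 3 counts, and at 5.195 CPM in the nuclei. Itgb4 was at 2.94, 7.60 and 18.5 CPM. Itgb6 was at 0 counts in the detrusor-only library, where 3 counts would be 1.10 CPM, at 1 count in the detrusor-enriched library and at 6.93 CPM in the nuclei.

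The Pln-led mural cells and the pericyte-like cells carried a different mix of muscle integrins. Itga8, the nephronectin receptor chain, was at 281 CPM (interval 256 to 308) in the Pln-led cells of the detrusor-only library and 291 CPM (259 to 325) in those of the detrusor-enriched library. Its level in smooth-muscle-like cells of the same libraries was 44.1 CPM (36.6 to 52.7) and 87.4 CPM (55.4 to 131), so the counting intervals did not overlap in either library. Itga7, a laminin receptor chain of muscle, was also higher in Pln-led cells, at 131 CPM (114 to 150.0) and 154 CPM (131 to 180), than in smooth-muscle-like cells at 33.4 CPM (26.9 to 41.1) and 60.8 CPM (34.8 to 98.7). Itga5 and Itga1 went the other way. Itga5 was at 15.9 and 14.4 CPM in Pln-led cells, and Itga1 was at 331 and 327 CPM. Pericyte-like cells of the detrusor libraries held Itga1 at 532 and 499 CPM, Itgb1 at 762 and 757 CPM, Itga7 at 99.6 and 109.8 CPM and Itga8 at 20.6 and 38.3 CPM, with Itga5 at 10.3 and 6.66 CPM. In the 22-month whole-bladder library, pericyte-like cells held Itga7 at 173 CPM, Itga8 at 93.7 CPM and Itgb1 at 620.1 CPM, and carried the smooth muscle markers at 27688 CPM, against 13328 and 14135 CPM in pericyte-like cells of the detrusor libraries. These comparisons rest on counts within single libraries, and their intervals leave out the spread between animals. Other clustering settings moved cells between the mural classes of the detrusor-only library, where Itga8 in smooth-muscle-like cells was at 108 to 134 CPM and Itga7 at 48.6 to 70.3 CPM under the 4 alternatives.

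**Figure D1:**
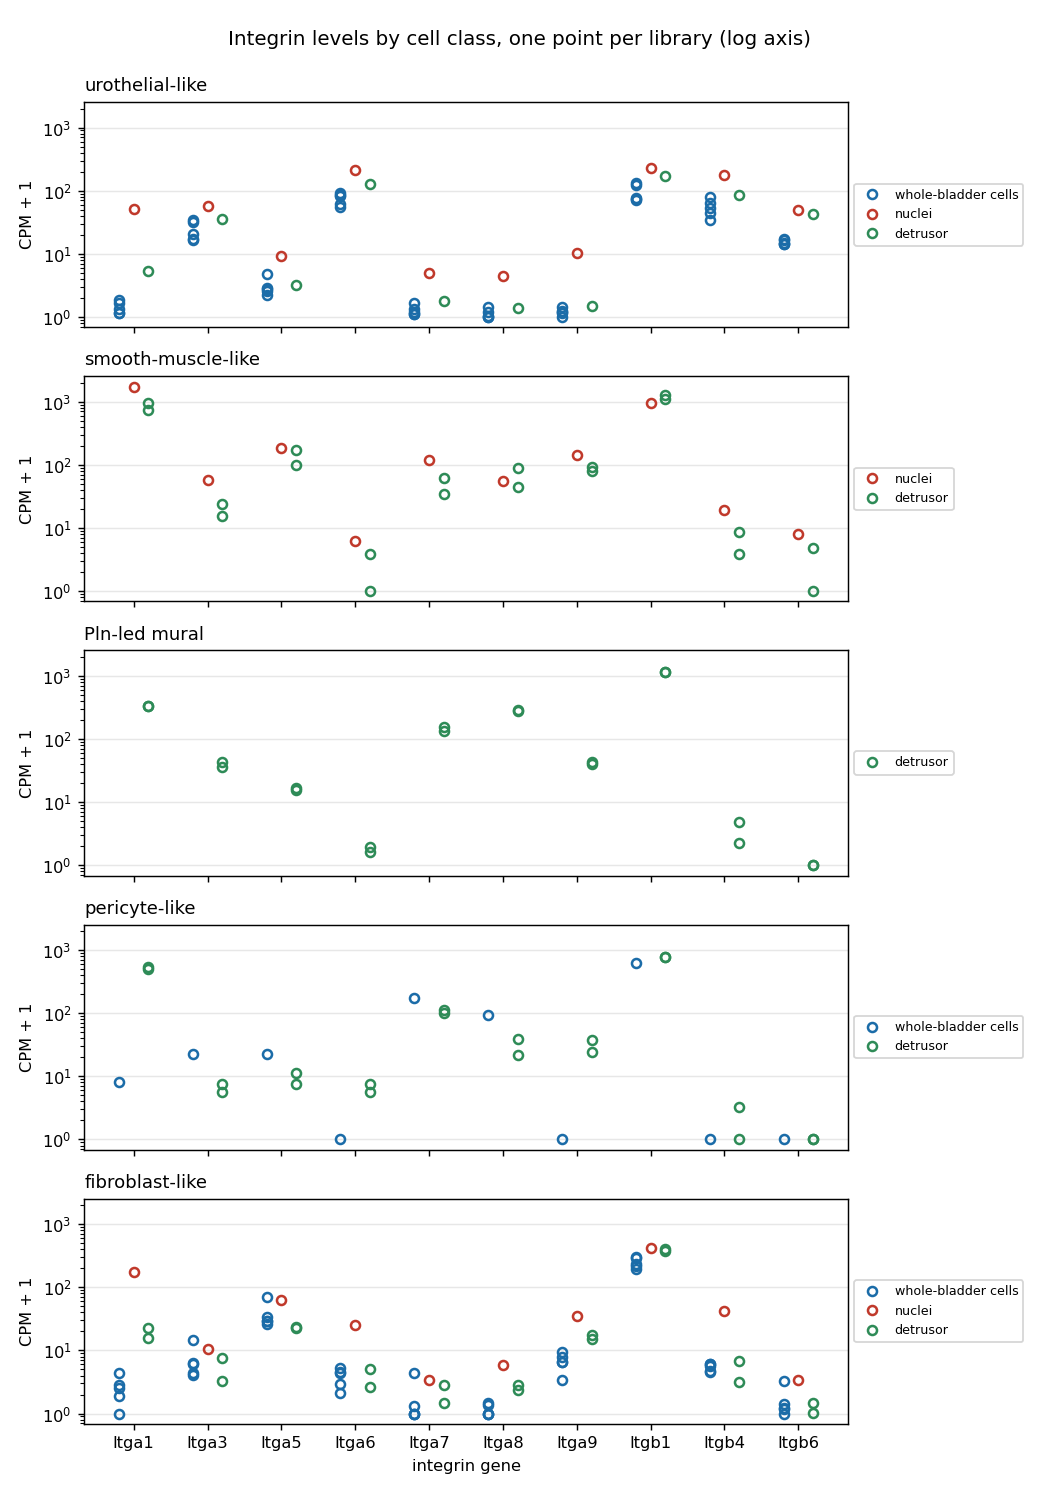
Levels of the 10 integrin genes (CPM + 1, logarithmic axis) in 5 cell classes, 1 point per library, coloured by kind of library. Of these 5 classes, Itga6, Itgb4 and Itgb6 are highest in urothelial-like cells, Itga1, Itga5 and Itga9 in smooth-muscle-like cells, and Itga7 and Itga8 in the mural classes.

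Fibroblast-like cells, which build the matrix of the bladder wall, held Itgb1 at the highest level of the members in all 8 libraries. Itgb1 was at 193 to 298 CPM in the 5 whole-bladder libraries (245 ± 45.1, SD) and at 371 and 403 CPM in the detrusor libraries. Itga5 was at 24.96 to 68.3 CPM in the whole-bladder libraries, with the highest value from the library with 94 fibroblast-like cells, and at 22.2 and 21.3 CPM in the detrusor libraries. Itga9 was at 2.44 to 8.54 CPM in the whole-bladder libraries and at 16.7 and 14.2 CPM in the detrusor libraries. Itga1 was at 0 to 3.40 CPM in the whole-bladder libraries, at 14.7 and 21.4 CPM in the detrusor libraries and at 172 CPM in the nuclei, where Itga5 was at 62.1 CPM. The other members were at 13.7 CPM or less in fibroblast-like cells of all 7 cell libraries. Outside the 5 classes of epithelium and muscle, the hemidesmosomal pair was not confined to epithelium: blood endothelial-like cells held Itga6 at 152 to 468 CPM and Itgb4 at 49.1 to 143 CPM, and Schwann-like cells, the glia of the bladder's nerves, held Itga6 at 38.1 to 223 CPM and Itgb4 at 57.2 to 297 CPM over the libraries that held them. The muscle set was not confined to muscle either: blood endothelial-like cells held Itga5 at 51.2 to 138 CPM over 7 libraries, and lymphatic endothelial-like cells of the detrusor libraries held Itga9 at 91.7 and 125 CPM, beside 78.6 and 91.2 CPM in smooth-muscle-like cells of the same libraries.

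Itga1 stood at another level in the whole-bladder cell libraries than in the rest. Other members differed in some classes too, in either direction. Itgb6 in urothelial-like cells was at 13.4 to 16.3 CPM in the whole-bladder libraries, 41.3 CPM in the detrusor-enriched library and 48.5 CPM in the nuclei. Itgb4 in lymphatic endothelial-like cells was at 38.6 to 58.5 CPM in 2 whole-bladder libraries and 10.2 to 21.6 CPM in the detrusor libraries. In blood endothelial-like cells Itga1 was at 29.5 to 37.6 CPM in 4 whole-bladder libraries and at 397 and 330.5 CPM in the detrusor libraries. In pericyte-like cells it was at 7.21 CPM, from 1 count, in the 22-month library and at 532 and 499 CPM in the detrusor libraries. In Schwann-like cells it was at 38.1 CPM, from 2 counts, and at 414 and 411 CPM. With 1 CPM added to both, Itga1 was 3.69 to 62.9 times as high in the detrusor libraries in each of the 7 non-immune classes held by both kinds of library. Of 9975 genes with a mean of at least 10 CPM in either kind, 69 were at least 3 times higher in all 7 classes and 31 at least 3 times lower, a fold chosen after the values were seen. The whole-bladder tables list 27775 or 27998 genes and those of the other droplet libraries and sections list 31053, so gene list and preparation cannot be told apart here. The whole-bladder cell libraries were of 3 to 24 months. The nuclei, of 12 months, held Itga1 at 679 CPM in blood endothelial-like and 172 CPM in fibroblast-like nuclei. Both detrusor libraries were of 14 months, an age of no whole-bladder cell library, and the part of age was not tested. Levels of Itga1 are therefore compared only among tables of 1 gene list, or with this difference beside them.

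Sections placed the same split in the tissue. Spots cover several cells, and the 20% of spots with the largest share of smooth muscle marker UMIs were compared with the 20% richest in urothelial markers in each of 4 sections (187 to 263 spots of each kind per section). The section was kept as a block in edgeR's quasi-likelihood test, and p-values were adjusted over all genes by Benjamini-Hochberg. Of 12977 genes tested, 73.5% were called at an adjusted p under 0.05 (34.6% higher and 38.9% lower in muscle-rich spots), so a call alone says little about a gene here, and the size of the difference is what is given. All 10 members were called, 7 higher and 3 lower in muscle-rich spots, and each had the same sign in 4 of 4 sections, as did 77.3% of all genes tested. The median log2 fold change of the members was 3.11, beside -0.08 over all genes tested. Spots were ranked on marker genes that include no integrin, but the contrast was chosen to separate muscle from epithelium. The members were chosen as subunits of these same tissues, with earlier results of these data known, so their median beside all genes is no test of them. Muscle-rich spots also held fewer UMIs, with medians of 10482 to 14692 against 31013.5 to 52253, and their part in the differences was not tested. The spots were not pure: urothelial markers summed to 2204 to 3888 CPM in muscle-rich spots and to 15053 to 17585 CPM in urothelium-rich spots. Fibroblast markers moved with the contrast too, at 9169 to 11882 CPM in muscle-rich and 4150.4 to 4693 CPM in urothelium-rich spots, and their part in the differences was not tested.

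Among the laminin and collagen receptors, Itga1 was at 365, 449, 373 and 384 CPM in the muscle-rich spots of the 4 sections (22-month sections first) and at 22.7, 22.2, 27.5 and 20.1 CPM in the urothelium-rich spots. The log2 fold change in edgeR was 4.18 ± 0.11 (SE, n = 4 sections, adjusted p = 1.06e-14). Itga7 was at 210.5, 177, 191 and 138 CPM against 11.7, 10.04, 14.7 and 6.62 CPM, a log2 fold change of 4.18 ± 0.12. Both genes were thus more than 10 times higher in muscle in every section. Itga3, the laminin receptor chain usually linked with epithelium, was also higher in muscle-rich spots, at 90.2, 108, 114 and 85.3 CPM against 43.8, 29.6, 47.8 and 35.4 CPM (log2 fold change 1.44 ± 0.12, adjusted p = 1.27e-08). In smooth-muscle-like cells Itga3 had been at 14.3 and 22.8 CPM, below the 34.1 CPM of detrusor-enriched urothelial-like cells, and in the Pln-led cells of the same 2 libraries at 35.6 and 41.4 CPM, so its order between muscle and urothelium depended on the muscle class in dissociated cells, where it was not tested. In nuclei the classes were level, with 55.4 CPM in urothelial-like and 56.6 CPM in smooth-muscle-like nuclei.

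The fibronectin receptor chain Itga5 was at 351, 526, 289 and 315 CPM in muscle-rich and 26.5, 28.4, 23.4 and 17.7 CPM in urothelium-rich spots (log2 fold change 4.02 ± 0.12). Itga8 had the lowest levels of the muscle set, at 31.7, 34.6, 54.3 and 28.3 CPM against 1.98, 1.47, 4.40 and 2.41 CPM (3.95 ± 0.17). Itga9 was at 106, 157, 125 and 109.8 CPM against 6.77, 6.83, 10.2 and 5.92 CPM (4.15 ± 0.13). Itgb1, their common beta chain, differed less, with 711, 932, 719 and 689 CPM in muscle-rich and 172, 163, 178 and 157 CPM in urothelium-rich spots (2.27 ± 0.11).

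The hemidesmosomal and TGF-beta-activating chains ran the other way. Itgb6 showed the widest gap of the 3, at 3.02, 2.80, 3.19 and 2.91 CPM in muscle-rich spots against 36.6, 27.4, 40.01 and 45.1 CPM in urothelium-rich spots (log2 fold change -3.53 ± 0.18, adjusted p = 9.53e-12). Itga6 was at 8.74, 7.35, 14.8 and 12.1 CPM against 41.2, 38.4, 49.7 and 48.6 CPM (-1.98 ± 0.14). Itgb4 was at 24.1, 25.2, 39.1 and 24.96 CPM against 73.4, 51.8, 112 and 92.0 CPM (-1.42 ± 0.12). Each of the 3 was lower in muscle-rich spots in 4 of 4 sections, and 77.3% of all genes tested also had 1 sign in all sections.

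When the spots of a section were cut into 5 equal groups by smooth muscle share, Itga1, Itga5, Itga7, Itga9 and Itgb1 rose at every step in 4 of 4 sections, and Itga3 and Itga8 in 2 of 4. Itga1 went from a mean of 20.04 CPM over the sections in the lowest group to 85.5, 214, 322 and 393 CPM. Itgb6 fell at every step in 3 of 4 sections, from 37.1 CPM to 2.99 CPM. Itga6 and Itgb4 each fell at every step in 1 section, and their means went from 48.1 to 10.7 CPM and from 86.1 to 28.3 CPM. Ranked by urothelial share instead, Itgb6 rose at every step in 4 of 4 sections, but Itga6 and Itgb4 in 0 of 4, and the mean of Itgb4 was 84.9 CPM in the next to highest and 82.2 CPM in the highest group.

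**Figure D2:**
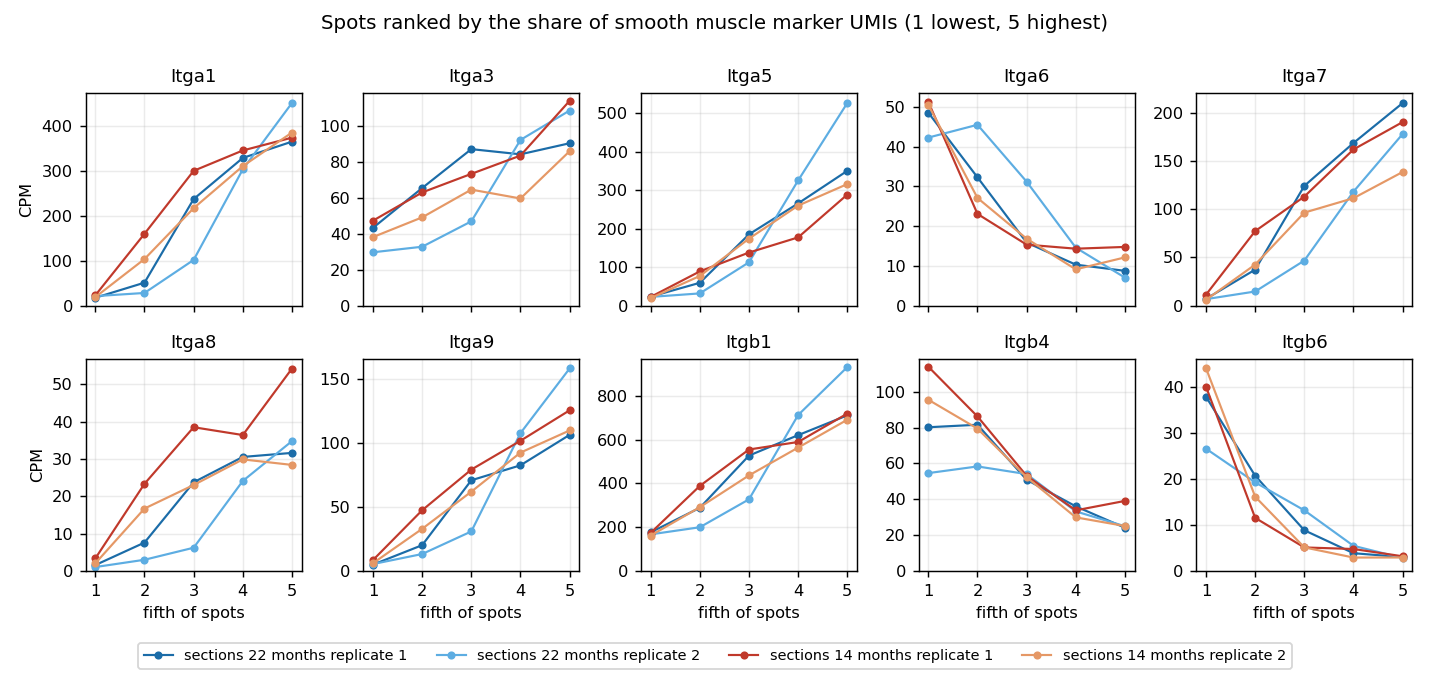
CPM of each integrin gene in 5 equal groups of spots ranked by the share of smooth muscle marker UMIs, 1 line per section, with each panel on its own axis from 0. The panels of the 7 genes higher in muscle climb to the right, from means of 20.04 to 393 CPM for Itga1, and those of Itga6, Itgb4 and Itgb6 drop.

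The partner lists were called in both directions in the same spots, and their counts stand beside 34.6% higher and 38.9% lower over all genes tested. Of 21 integrin adaptor and focal adhesion genes, 15 were higher and 2 lower in muscle-rich spots. Lims2, an adaptor of the integrin-linked kinase complex, was at 532 CPM on average against 32.4 CPM, the actin cross-linker Actn1 at 764 against 49.8 CPM, and the tensin Tns1 at 997 against 92.0 CPM. Of 11 laminin chains, 5 were higher and 5 lower, near those shares. Lama4 rose to 230 from 28.1 CPM, while Lama3 fell to 2.93 from 23.4 CPM and Lamb3 to 15.7 from 97.2 CPM, the last pair being chains of laminin-332, the hemidesmosomal ligand. Of the other ligands, 6 were higher and 1 lower of 10 tested, led by Col4a2 at 595 against 67.1 CPM and fibronectin, Fn1, at 1369 against 192 CPM. Among the hemidesmosome partners, Col17a1 was lower in muscle-rich spots, at 4.51 against 23.7 CPM, and Cd151 and Plec were higher, at 384 against 129 CPM and 367 against 209.7 CPM. Of the other integrin subunits, 6 were higher and 2 lower of 14, with Itgb3 at 211 against 10.99 CPM.

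Within the urothelium, Itga3, Itgb4, Itga6 and Itgb1 were higher in cells with a low share of uroplakin transcripts. Uroplakins are the plaque proteins of the luminal umbrella cells, so the urothelial-like cells of each library were ranked by their share of uroplakin UMIs and cut into 3 equal groups (247 to 700 cells each in the whole-bladder libraries), called uroplakin-low, middle and uroplakin-high. Of 11491 genes tested between uroplakin-low and uroplakin-high cells of 5 whole-bladder libraries, with the library as a block in edgeR's test, 29.1% were called (15.1% higher and 14.0% lower in uroplakin-low cells). Of the 10 members, 6 passed the filter on low counts, 5 were called higher in uroplakin-low cells, and none lower. All 5 had the same sign in 5 of 5 libraries, as did 31.6% of all genes tested. The count of genes called fell to 2044 without the first 12-month library, to 1991 without the 24-month library and to 2065 in DESeq2, from 3347. Uroplakin-high cells also held more UMIs per cell in every library (medians 3602 to 20456 against 2511.5 to 14468), and 23 of 29 genes of a list of dissociation response genes were called higher in uroplakin-low cells too. Their part in the difference was not tested.

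The laminin receptors showed the largest differences. Itga3 was at 62.8, 25.8, 30.1, 64.4 and 37.2 CPM in uroplakin-low cells (22 months, 3 months, both 12-month libraries, 24 months) and at 17.9, 8.73, 6.69, 11.6 and 8.23 CPM in uroplakin-high cells. The log2 fold change was 2.12 ± 0.13 (SE, n = 5 libraries, adjusted p = 1.52e-10). Itgb4 was at 112, 94.7, 53.2, 69.9 and 81.4 CPM against 52.5, 35.5, 20.8, 25.7 and 29.98 CPM (1.32 ± 0.09, adjusted p = 6.75e-10). Itga6, the partner of Itgb4, was at 79.5, 84.7, 124, 113 and 115 CPM against 40.4, 44.8, 55.2, 77.6 and 53.7 CPM (0.91 ± 0.10, adjusted p = 9.29e-07). Itgb1 was at 159.6, 182, 97.1, 105 and 103 CPM against 95.2, 107, 53.0, 61.4 and 52.5 CPM (0.78 ± 0.07). Libraries set the level of Itgb1 as much as the uroplakin groups did: uroplakin-high cells at 22 and 3 months were close to uroplakin-low cells of the other 3 libraries.

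Itgb6 differed least, at 16.6, 15.8, 16.9, 17.6 and 20.2 CPM in uroplakin-low cells and 7.50, 8.14, 12.2, 15.3 and 13.4 CPM in uroplakin-high cells (0.50 ± 0.13, adjusted p = 0.00707). Its call was lost in DESeq2 (adjusted p = 0.054) and without the 24-month library (0.0834). The middle group was above the uroplakin-low group for Itgb6 in the 22-month and 3-month libraries. Itga5 did not pass (log2 fold change 0.04 ± 0.40, 95% interval -0.79 to 0.87, adjusted p = 0.959). Itga1, Itga7, Itga8 and Itga9 were below the filter.

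Libraries that the test did not use showed the same order for Itga3 and Itgb4. In the detrusor-enriched library, with 124 cells in each group, Itga3 was at 69.4 CPM in uroplakin-low, 34.9 CPM in middle and 9.51 CPM in uroplakin-high cells, Itgb4 at 140.0, 87.2 and 43.5 CPM, and Itga6 at 179, 136 and 87.3 CPM. In nuclei the gradient was flatter for Itga3, at 66.2, 52.5 and 49.5 CPM, and Itgb4 was at 254, 156 and 126 CPM. Nuclei were ranked on few uroplakin UMIs: uroplakin-low nuclei held 0 to 0.164% of a median of 1270 UMIs. The part of this in the flatter gradient was not tested.

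**Figure D3:**
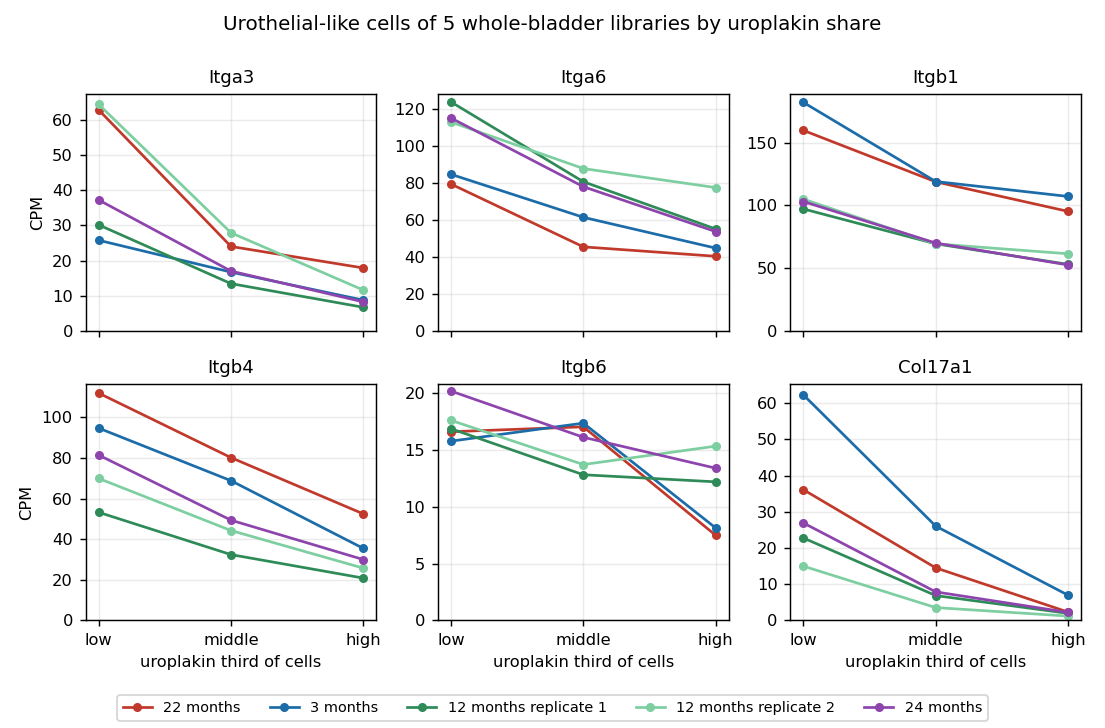
CPM of 5 integrin genes and of the hemidesmosome partner Col17a1 in 3 equal groups of urothelial-like cells by uroplakin share, 1 line per whole-bladder library, axes from 0. All lines for Itga3, Itga6, Itgb1, Itgb4 and Col17a1 fall from uroplakin-low to uroplakin-high cells, and those for Itgb6 are uneven.

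The counts of the partner lists stand beside 15.1% higher and 14.0% lower over all genes tested. All 4 hemidesmosome partners were called higher in uroplakin-low cells: Col17a1 at a mean of 32.6 against 2.93 CPM (log2 fold change 3.49), Dst at 148 against 75.5 CPM, Plec at 78.0 against 51.3 CPM and Cd151 at 138 against 95.7 CPM. In nuclei, which the test did not use, Col17a1 was at 135 CPM in uroplakin-low and 55.3 CPM in uroplakin-high nuclei and Dst at 1449 and 1055 CPM, but Plec was at 400.1 and 448 CPM and Cd151 at 73.6 and 70.3 CPM. Of 9 laminin chains tested, 6 were higher in uroplakin-low cells and 1 lower. Lamb1 was at 22.8 against 8.04 CPM, Lama5 at 107 against 57.4 CPM and Lama3 at 17.5 against 10.7 CPM. Of 19 adaptor genes, 7 were higher and 1 lower, with Tns1 at 35.9 against 11.1 CPM and the blood-cell kindlin Fermt3 at 9.44 against 23.4 CPM. Of 7 other integrin subunits tested, 2 were higher, among them Itgb5 at 47.0 against 27.9 CPM, and of 9 other ligands 2 were higher and 7 not called.

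In bulk RNA, the muscle chains and Itgb6 were lower and Itga6 was higher after dissociation. Dissociated bladder was compared with intact bladder, with 3 libraries each of 23083752 to 68760791 assigned reads. Bulk values are CPM over all listed genes, not corrected for gene length, so levels are compared only within a gene. Of 16538 genes tested in edgeR, 59.2% were called (27.9% higher and 31.3% lower in dissociated cells). Of the members, 7 were lower, 1 was higher and 2 were not called, with a median log2 fold change of -0.68 beside -0.03 over all genes tested (-0.14 when scaled by library size alone, with the same 8 members called). In bulk RNA, fewer cells of a type and less RNA per cell cannot be told apart. The smooth muscle markers summed to 47892 ± 1066 CPM (SD, n = 3) in intact and 3306 ± 648 CPM in dissociated bladder, the urothelial markers to 5688 ± 444 and 6799 ± 1813 CPM, the umbrella cell markers to 4513 ± 235 and 1802 ± 323 CPM, the fibroblast markers to 18376 ± 1698 and 38677 ± 7461 CPM, and the dissociation response genes to 983 ± 136 and 23822 ± 2478 CPM. Their part in the integrin differences was not tested.

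Itga7, Itga1 and Itga9 fell most. Itga7 was at 89.9, 78.6 and 113 CPM in intact and 26.5, 26.6 and 23.6 CPM in dissociated bladder (log2 fold change -1.77 ± 0.14, SE, adjusted p = 3.71e-05). Itga1 was at 120.0, 187 and 113 CPM against 40.7, 41.2 and 40.3 CPM (-1.67 ± 0.19). Itga9 was at 153, 149.8 and 131 CPM against 49.3, 40.03 and 43.2 CPM (-1.60 ± 0.11). The groups did not overlap for these 3, as for 67.9% of all genes tested, and the dissociated libraries lay close together.

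Itga8 was at 46.7, 37.1 and 45.3 CPM against 16.7, 20.3 and 18.1 CPM (-1.12 ± 0.12). Itga5 was at 315, 229.8 and 290.3 CPM against 183, 171 and 175 CPM (-0.55 ± 0.13, adjusted p = 0.0067). Itgb1 was at 1047, 1082 and 1021 CPM against 646, 648 and 648 CPM (-0.59 ± 0.08). All 3 were lower in every dissociated library than in any intact one, an absence of overlap that 67.9% of all genes tested shared.

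The members of urothelium did not move as one. Itga6, which blood endothelial-like cells held at higher levels than urothelial-like cells in every library with both, was higher in dissociated bladder, at 114, 139.9 and 171 CPM against 80.7, 81.7 and 72.2 CPM (0.97 ± 0.15, adjusted p = 0.00108). Blood endothelial markers moved with it, from 512 ± 32.8 to 838 ± 80.1 CPM (SD, n = 3), as did lymphatic endothelial markers, from 173 ± 17.5 to 378 ± 14.0 CPM. The basal urothelium markers were at 1382 ± 206 CPM in intact and 1730 ± 333 CPM in dissociated bladder, and the groups overlapped. The part of these cells in the difference was not tested. Itgb6 was lower, at 10.2, 12.1 and 14.9 CPM against 21.9, 20.5 and 26.0 CPM (-0.76 ± 0.16, adjusted p = 0.00455). Itgb4 did not pass, at 97.99, 92.7 and 152 CPM against 113, 75.7 and 138 CPM (0.18 ± 0.26, 95% interval -0.43 to 0.79, adjusted p = 0.568), and neither did Itga3, at 110.1, 109.5 and 189.7 CPM against 116, 90.0 and 146 CPM (0.34 ± 0.26, -0.27 to 0.94, adjusted p = 0.296). Dissociated library 3 was the highest of its group for Itga3, Itga6, Itgb4 and Itgb6, and the urothelial marker sums of the dissociated libraries ranged from 5597 to 8884 CPM.

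**Figure D4:**
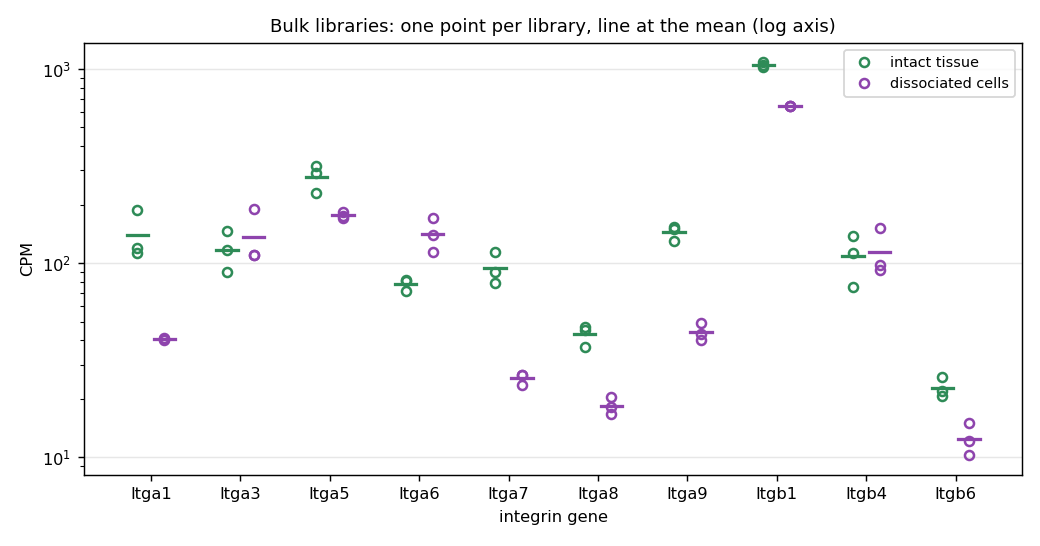
Bulk levels of the 10 integrin genes (CPM, logarithmic axis) in 3 intact and 3 dissociated libraries, points for libraries and lines for means. The dissociated points lie below the intact ones for 7 genes, above them for Itga6, and among them for Itga3 and Itgb4.

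The partner lists were called in both directions in bulk RNA, beside 27.9% higher and 31.3% lower over all genes tested. Of 21 adaptor and focal adhesion genes, 13 were lower and 3 higher: Lims2 was at 26.1 against 153 CPM, Actn1 at 152 against 882 CPM and Tns1 at 407 against 2278 CPM. Of 11 laminin chains, 7 were higher and none lower, with Lama2 at 432 against 141 CPM. Of 11 other ligands, 7 were higher and 1 lower, among them Vcam1 at 234 against 74.5 CPM and Svep1, a ligand of the Itga9 receptor, at 414 against 207 CPM. Of 16 other integrin subunits, 12 were higher, and the 1 that was lower was Itgb3, at 24.6 against 176 CPM. Among the hemidesmosome partners, Col17a1 and Dst were higher, at 33.4 against 21.6 CPM and 711 against 507 CPM, and Cd151 was lower, at 127 against 179 CPM.

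Nuclei were set against whole-bladder cells of the same class, 1 nuclear library against 5 cell libraries. The nuclei have no replicate, so the levels are a description of this library. The fit takes all its spread from the cells, and no p-value is given for a gene. In urothelial-like sums, edgeR put 35.1% of 13349 genes past an adjusted p of 0.05 on that assumption (16.0% higher and 19.1% lower in nuclei), and 3 of the 10 members, Itga1, Itga7 and Itga9, all higher. Itga7 was not past it in DESeq2 or without 4 of the 5 cell libraries in turn, the 22-month, both 12-month and the 24-month library. Their levels were 50.6, 3.93 and 9.17 CPM in nuclei, and 0.43 ± 0.32, 0.30 ± 0.23 and 0.20 ± 0.15 CPM (SD, n = 5) in cells. No cell library held them above 0.85, 0.68 and 0.43 CPM, so all 3 passed the filter on low counts only through the nuclei. That they were higher in nuclei was thus set by the filter and is no result of the test. All 3 belong to the muscle set, and the smooth muscle markers moved with them, at 5965 CPM in these nuclei against 32.3 to 188 CPM in the cells. The dissociation response genes went the other way, at 1607 CPM in these nuclei against 8819 to 17817 CPM in the cells. The part of either list in the differences was not tested. For Itga1 the contrast also crosses the gene lists between which its level differed.

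Itga6 was at 211 CPM in urothelial-like nuclei and 73.7 ± 15.6 CPM in cells, and Itgb4 at 174 against 54.3 ± 17.6 CPM. TMM scaling, which sets most genes level, put their log2 fold changes at 0.26 and 0.55. By library size alone, the median of all genes moved from -0.03 to 1.13, 5028 genes were past the threshold higher and 583 lower in place of 2139 and 2551, and so were 9 of the 10 members.

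In fibroblast-like sums, 22.0% of 12428 genes were past the threshold on the same assumption (7.66% higher and 14.4% lower in nuclei), with a median log2 fold change over all genes of -0.31. With RLE size factors that median was -0.06 and the split was 1330 higher and 1341 lower, and by library size alone it was 0.57 with 2624 higher and 407 lower. The count of genes fell from 2739 to 1671 without the first 12-month library and to 1822 without the 24-month library. Of the 10 members, 7 passed the filter on low counts, and 2 of them were past the threshold, Itga1 and Itgb4. Itga1 was at 172 CPM in nuclei against 1.53 ± 1.26 CPM in cells, a contrast that crosses the gene lists too. Itgb4 was at 40.6 CPM, from 17 counts, against 4.46 ± 0.77 CPM. Smooth muscle markers stood at 12419 CPM in these nuclei and at 248 to 2405 CPM in the cells, and the urothelial markers at 1739 CPM and at 381 to 1835 CPM. The dissociation response genes stood at 2998 CPM in these nuclei and at 30102.5 to 40664 CPM in the cells. The part of these lists in the differences was not tested.

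Age was compared in 3 settings, and no integrin was called in any. In urothelial-like cells, the 22-month and 24-month libraries were set against the 3-month and 12-month ones, with male-only against mixed pools as a term. Male-only pools also had barcodes of 14 bases and 27775 listed genes, and mixed pools 16 bases and 27998 genes. The term thus cannot tell sex from these. In edgeR 0% of 12295 genes were called (333 had an unadjusted p under 0.05, and DESeq2 called 3). The 6 members tested lay between log2 fold changes of -0.11 and 0.42, with a lowest adjusted p of 0.9997. Itgb4 was the highest, at 79.3 and 51.7 CPM in the older and 62.9, 34.0 and 43.5 CPM in the younger libraries, and the groups overlapped (log2 fold change 0.42 ± 0.16, 95% interval 0.05 to 0.79). Without single libraries edgeR called 3 to 32 genes and no member. In fibroblast-like cells 0% of 11461 genes were called (196 at an unadjusted p under 0.05, 6 in DESeq2), and the 6 members tested lay between -0.47 and 0.39. Between sections at 22 and 14 months 0% of 14318 genes were called (2359 at an unadjusted p under 0.05, 406 in DESeq2, of which no member). The largest member difference was in Itga8, at 11.3 and 9.05 CPM over all spots at 22 months and 20.7 and 13.3 CPM at 14 months (log2 fold change -0.67 ± 0.25, 95% interval -1.31 to -0.04, adjusted p = 0.288). Itga6 was the most even, between 33.4 and 34.0 CPM in the 4 sections.

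The genes with the most similar levels to each member were found over 56 sums of libraries and classes with at least 50 cells, among 9604 genes with a mean of at least 10 CPM. The sums share libraries and depth, and the correlations describe them without a test. Itgb1 followed the muscle genes Cald1 (Pearson r = 0.91) and Tagln (0.90). Itga7 was closest to Akap6 (0.87) and to the pericyte proteoglycan gene Cspg4 (0.85), and Itga8 to Myom1 (0.88) and Rbm24 (0.87). Itga9 was closest to the adhesion gene Tns1 (0.79). Itga6 was closest to Adam10 (0.86), Itgb4 to Mmp15 (0.80), Itga3 to Mast4 (0.86), and Itgb6 to Tmprss13 (0.89), a membrane protease gene. Itga5 had the loosest match, with Map7d1 (0.73). Itga1 was closest to Marveld1 (0.87), over sums that mix the kinds of table between which its level differed by 3.69 to 62.9 times with 1 CPM added to both.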

How the data were processed

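The authors deposited UMI counts per gene and barcode for 8 droplet libraries (10x Chromium, per the labels' protocols) and 4 Visium sections, and read counts per gene for 6 bulk libraries (TruSeq poly(A) libraries of RNeasy RNA, per the labels' protocols). The submitters' processing notes name bcl2fastq, Cell Ranger, Space Ranger, Subread, featureCounts and the mm10 build. Further upstream settings are not given in the sources used here. All columns of per-sample values were matched to a sample.

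Kept barcodes held 500 UMIs or more, with mitochondrial UMIs no higher than 20%, and the highest-scoring doublets were removed at 0.8% per 1000 barcodes. Each library was clustered with scanpy 1.11.5 and the Leiden method of igraph (2000 variable genes, 30 components, 15 neighbours, resolution 1), leaving out 73 genes of the integrin lists and related lists. A cluster was named from a marker list by a rule settled after the clusters were seen: a score of at least 0.25, and at least 3 markers and at least 1 in 3 of the list in 10% of cells at 2 times the level of low clusters. Classes of 20 or more cells are described and of 50 or more tested. CPM was taken over the 26324 genes common to all tables, and in bulk over 29214 genes. Raw counts, summed per library, were tested with edgeR 4.0.16 (quasi-likelihood, TMM, filterByExpr, Benjamini-Hochberg over all genes, threshold 0.05), with DESeq2 1.42.0 as an alternative, in R 4.3.3. The fits were also run on simulated counts that held no library or section effects, so that run does not test the blocked fits as used here. Intervals for class levels are exact Poisson intervals (95%), and they and the floor of 3 counts cover counting error only.

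All 10 members were named, and from each other list up to 4 genes per comparison with the largest fold change among those called, not overlapping (or of 1 sign in every pair) and at a mean level of 10 CPM or more. Some genes that this rule would name are not reported here. For likeness, the 3 genes with the highest r of log2(CPM + 1) were taken for each member. The members and lists were chosen with earlier results of these data known. Each library pools animals, and nothing in the labels says how bulk libraries were split, so p-values measure the spread between these samples. Alternatives were other scalings, DESeq2, no filter, other blocks or terms, leaving out each library, 10% or 30% of spots, another cut of the uroplakin ranking, and other clusterings. Up to 1.00% of barcodes were shared between droplet libraries.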

Additional observations from a re-analysis of the deposited data

How the results depend on the processing

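The calls of the members in bulk RNA and in spots were kept under all alternatives run. The fits of nuclei have 1 nuclear library in every alternative, so these show nothing of the spread of nuclei. Without each library in turn, bulk Itgb4 ranged from -0.090 to 0.38 (log2), Itga3 in urothelial-like nuclei from -0.10 to 0.28, Itga3 and Itga5 in fibroblast-like nuclei from -0.26 to 0.29 and from -0.24 to 0.26, and Itga5 between uroplakin groups from -0.15 to 0.20. With the 12-month cell libraries only, Itga3 and Itga6 in urothelial-like nuclei were at -0.16 and -0.14 and Itgb1 in fibroblast-like nuclei at 0.13. In fibroblast-like nuclei, Itga3, Itga5 and Itgb1 were at 0.20, 0.15 and 0.10 with RLE size factors, at 0.85, 0.83 and 0.75 by library size alone, and at 0.16, 0.14 and 0.10 in DESeq2. DESeq2 put Itga5 between uroplakin groups at -0.086. None of these was called, and the cause was not tested.

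By library size alone, the median log2 fold change of all genes was 1.13 in urothelial-like and 0.57 in fibroblast-like nuclei. In the main fits it was -0.03 and -0.31. Genes called ranged from 1671 to 3200 in fibroblast-like nuclei and from 1991 to 3785 between uroplakin groups without each library in turn, and DESeq2 called 2065 between uroplakin groups. With no replicate block, the uroplakin groups gave 376 genes and 3 members, with Itga6 (adjusted p = 0.227) and Itgb6 (adjusted p = 0.537) not called in edgeR, and the spots gave 8634 genes and 10 members. In bulk, same-numbered libraries correlated at 0.243, 0.411 and -0.11 in their deviations, so the numbers were not taken to pair them. The replicate block gave 10118 genes and 9 members there, adding Itga3 (0.31, adjusted p = 0.0495). For age, DESeq2 and no filter called 3 and 72 genes in urothelial-like cells and 6 and 8 in fibroblast-like cells. In sections, library size alone, DESeq2 and no filter called 36, 406 and 212. Without each library in turn the counts were 3 to 32, 0 to 46 and 0 to 277, and no member was called.

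Of 100 class levels of at least 10 CPM, 83 to 94 stayed within 1.5-fold under other clusterings. The others moved to between 0.0916 and 3.05 times their level, both for Itga8 in the detrusor-only library, in pericyte-like (190.05 to 17.4 CPM, Pln-led cells counted there) and smooth-muscle-like cells (44.1 to 134 CPM). The highest of 4 classes in the detrusor-enriched library was kept for 10 members under 3 of them and for 7 when each cell was called on its own. That check counts Pln-led cells as smooth-muscle-like, unlike the levels above, and then Itga1 was highest in pericyte-like cells (499 CPM, against 453 CPM). Depth limits the smallest classes, such as the 22-month pericyte-like cells, where 3 counts are 21.6 CPM, and the detrusor-enriched smooth-muscle-like cells, where they are 11.4 CPM.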

Other observations

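Itga1 was also higher in some classes not described above in the detrusor libraries. Lymphatic endothelial-like cells held it at 0 to 29.3 CPM in 2 whole-bladder libraries and at 153 to 162 CPM in the detrusor libraries, and mesothelial-like cells at 0 to 7.14 CPM in 3 and at 38.3 to 51.5 CPM. In T or NK-like cells it was at 0 to 6.40 CPM in 4 whole-bladder libraries and at 59.8 to 95.9 CPM in the detrusor libraries. Macrophage or monocyte-like cells overlapped, at 0 to 5.55 and 3.82 to 10.3 CPM, and B-like cells were at 0 to 1.55 CPM in 3 whole-bladder libraries and at 0 counts in the 1 detrusor library that held them, where 3 counts would be 19.4 CPM. Of the genes compared, 44, Itga1 among them, had a lowest ratio over the 7 non-immune classes at or above that of Itga1, led by Mia2, Atn1 and Lars2. These ratios have 1 CPM added to both sides. The lowest of Itga1 was in urothelial-like cells, where its levels were near the floor, at 0.43 CPM in whole-bladder and 4.28 CPM in detrusor-enriched cells. Gene list and preparation cannot be told apart for any of them.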
